A study of Homo sapiens with 8 samples.

Results

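Expression of 10 target genes of the Wnt pathway was examined in HCT116 colon cancer cells and PANC-1 pancreatic cancer cells, each transfected with 1 miRNA. The genes were AXIN2, NKD1, RNF43, ZNRF3, SP5, ASCL2, LGR5, TCF7, TCF7L2 and LEF1, and every probe that carried one of these names on the array was taken, which gave 16 probes for 10 of the 43317 gene names on it. Of the 8 two-colour arrays, 4 held HCT116 cells, which carry mutant beta-catenin, given one strand of the miR-139 precursor (miR-139-5p or miR-139-3p) or of the miR-143 precursor (miR-143-5p or miR-143-3p), and 4 held PANC-1 cells given a strand of a miR-30c precursor (miR-30c-5p or miR-30c-2-3p) or of the miR-30a precursor (miR-30a-5p or miR-30a-3p). RNA of the transfected cells was labelled with Cy5 and that of mock cells of the same line, listed as not transfected, with Cy3. Each miRNA had 1 array, so a ratio to mock has no replicate and no test. In bulk RNA, fewer expressing cells and less RNA per cell cannot be told apart. The arrays of the 2 strands of a precursor may share 1 mock RNA, so the mock channels were counted as 2 mocks for each line.

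In canonical Wnt signalling, a destruction complex built on APC and axin proteins marks beta-catenin for degradation. A Wnt ligand bound to Frizzled and LRP receptors halts this complex, and beta-catenin then enters the nucleus and binds TCF/LEF proteins on the promoters of target genes. Many targets are feedback inhibitors of the pathway or its own transcription factors, and in the intestinal crypt several mark stem cells. Mutant beta-catenin escapes degradation, which is a known route to pathway activity in colon cancer.

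The mature sequences of the transfected miRNAs are shown because the seed, bases 2 to 8 in capitals, is the part that pairs with target mRNAs. They were taken from RefSeq (GRCh38.p14), and the 2 guide strands of the miR-30 precursors have the same seed.

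miR-139-5p: uCUACAGUgcacgugucuccagu
miR-139-3p: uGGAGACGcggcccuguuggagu
miR-143-5p: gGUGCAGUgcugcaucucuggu
miR-143-3p: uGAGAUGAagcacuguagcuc
miR-30c-5p: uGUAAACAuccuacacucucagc
miR-30a-5p: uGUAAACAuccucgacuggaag
miR-30c-2-3p: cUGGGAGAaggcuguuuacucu
miR-30a-3p: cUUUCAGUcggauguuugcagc

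None of the 16 member probes held a heptamer complementary to one of these seeds. For a given miRNA, 0.591% to 1.79% of 58201 probes held one, so its absence from 16 probes says little. A probe covers 60 bases, and the rest of each mRNA was not searched for sites. As a check of the labels, the ratios of all detected genes whose probe held a heptamer of the transfected miRNA were compared with the rest. Their median log2 ratio was below that of the other genes on 7 of the 8 arrays. The gap was widest after miR-30c-5p, with -0.072 in 180 genes against 0.013. It was narrowest after miR-139-3p, with -0.0090 in 150 genes against 0.012. On the array bearing the miR-143-3p label the median was 0.028 in 200 genes against 0.0051, a gap the other way, close in size to the narrowest. The share of genes at least 2-fold lower was higher with a heptamer than without on all 8 arrays. It was 9.33% against 2.78% after miR-139-3p, and 1% against 0.924% on the array bearing the miR-143-3p label. Neither the gaps nor these shares were tested, so the check settles no label, and this array is named by its label only. Of 5 colorectal markers tested between the mock cells of the lines by the rule given below, EPCAM, CDH1 and CDX2 were called higher in HCT116, CDX1 (-0.068, log2 HCT116 minus PANC-1) was not called, and LGALS4 (-0.39), above background in PANC-1 alone, differed by less than 2-fold. Of 4 pancreatic duct markers tested, MUC1 (-1.75) was called higher in PANC-1, while KRT7 (2.14), KRT19 (0.59) and SOX9 (0.45) had higher levels in HCT116 and were not called, so the duct list did not mark the PANC-1 cells. The mesenchymal VIM, ZEB1 and SPARC were called higher in PANC-1. CDH2 was called as well, but it was above background in PANC-1 alone, so that the filter set its direction. FN1, also on the mesenchymal list, was not well above background in any mock channel. The colon markers CDH17, VIL1 and GPA33 and the pancreatic factor PDX1 were not well above background in any mock channel. Of the blood genes, CD3E was in none and PTPRC in all 8, at signals of 25.0 to 28.9, and of the endothelial genes PECAM1 was in none and CDH5 in all 8, at 28.4 to 65.5. The shares of spots well above background were 44.1% to 45.3% in Cy3 and 45.8% to 51.4% in Cy5, the highest being the Cy5 channel of miR-30a-3p.

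In mock cells, RNF43, SP5 and ZNRF3 were higher in HCT116 than in PANC-1, by 2.40-fold to 12.4-fold, and AXIN2, which was above background in HCT116 alone, by at least 2.51-fold. TCF7 and TCF7L2 were above background in both lines and were not called different, and NKD1 differed by less than 2-fold. ASCL2, LGR5 and LEF1 were not well above background in any mock channel. A gene was called when limma's adjusted p was under 0.05 and the difference at least 2-fold, and of 19496 genes tested 6.28% were called higher in HCT116 and 6.16% higher in PANC-1. Of the 10 members 7 passed the filter on dim probes. RNF43, SP5, ZNRF3, TCF7 and TCF7L2 were above background in both lines, and the first 3 of these were called higher in HCT116. AXIN2 and NKD1 passed through HCT116 alone, so that a difference in that direction was set by the filter, and the call of AXIN2 adds nothing to this count. The log2 levels were computed with an offset of 50 added to each signal, which draws the folds of dim probes toward 1. The 2 lines lay in different columns of the slide, so line and position cannot be told apart, and the p-values measure the spread between mocks that may be technical. Below, spot signals are given in a fixed order of arrays, miR-139 before miR-143 in HCT116 and miR-30c before miR-30a in PANC-1, 5p ahead of 3p in each pair. Where the signals of the lines do not overlap, this is description only, because the share of all genes that separate was not counted. Differences between the lines were common, with an adjusted p under 0.05 (limma) for 8690 of the 19496 genes tested.

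**Figure D1:**
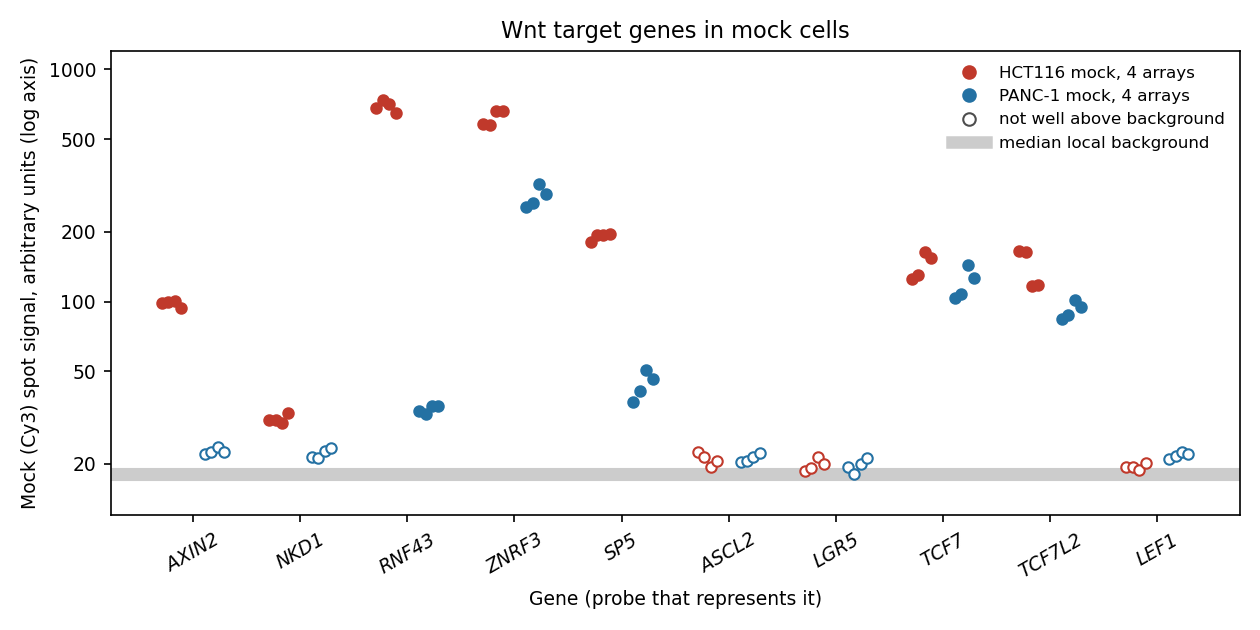
Mock (Cy3) spot signal in arbitrary units, on a log axis, of the probe that represents each gene, with 1 point for each of the 4 HCT116 and 4 PANC-1 arrays. The grey band is the range of the median local background, and open points are not well above background. RNF43, ZNRF3, SP5 and TCF7L2 have filled points in both lines, with HCT116 above PANC-1, while TCF7 overlaps. AXIN2 and NKD1 have filled points in HCT116 alone, where the filter set the direction. LEF1 has open points only, which lie lower in HCT116. The points of a line are counted as 2 mocks, and the share of all genes that separate in this way was not counted. Heights of different genes come from different probes and cannot be compared.

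RNF43 and ZNRF3 are transmembrane ubiquitin ligases that remove Frizzled receptors from the cell surface. The RNF43 probe (hg19 chr17:56431063-56431122, minus strand) gave mock signals of 681, 736, 711 and 649 in HCT116 and of 33.8, 32.7, 35.6 and 35.6 in PANC-1. The groups did not overlap, and the PANC-1 signals were above background but low. Mean log2 levels of 9.76 and 6.13 differed by 3.63 ± 0.064 (SE, 2 mocks of each line), a 12.4-fold difference (limma, adjusted p = 0.000573). The 2 HCT116 mocks differed by 0.090 on the log2 scale and the 2 PANC-1 mocks by -0.029. Under the other settings the difference was between 11.3-fold and 47.3-fold.

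The ZNRF3 probe with the stronger signal (hg19 chr22:29449612-29449671, plus strand) read 583, 573, 664 and 660 in HCT116 mock cells and 254, 266, 320 and 290 in PANC-1 mock cells. Again every HCT116 value was above every PANC-1 value. The log2 difference was 1.26 ± 0.086 (SE), or 2.40-fold (limma, adjusted p = 0.00289), and between 2.26-fold and 2.60-fold under the other settings. A further ZNRF3 probe (hg19 chr22:29452861-29452920) had a difference of 0.73, less than 2-fold.

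AXIN2 is a scaffold of the destruction complex and a feedback inhibitor that is widely used as a readout of the pathway. Its representing probe (hg19 chr17:63525389-63525448, minus strand) gave 98.1, 99.8, 101 and 94.2 in HCT116 mock cells. In PANC-1 the signals were 22.1, 22.4, 23.6 and 22.4, not well above background on any of the 4 arrays. The level was therefore at least 2.51-fold higher in HCT116 (mean log2 levels of 7.19 and 5.86, limma, adjusted p = 0.00147), where the bound is set on levels that include the offset. The probe entered the test only through HCT116, so its p describes the fit and is not read as support. The other AXIN2 probe (hg19 chr17:63554388-63554447) gave 52.0 to 70.8 in HCT116 and 18.5 to 21.8 in PANC-1, again not well above background, for a bound of at least 1.81-fold.

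SP5, a zinc-finger transcription factor induced by Wnt signalling, gave mock signals of 181, 193, 194 and 195 in HCT116 and of 36.8, 41.2, 50.7 and 46.5 in PANC-1 (hg19 chr2:171574290-171574349, plus strand). The values within HCT116 were close together and did not overlap with PANC-1. The log2 difference was 1.68 ± 0.071 (SE), or 3.21-fold (limma, adjusted p = 0.00145), and up to 7.46-fold under the other settings.

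NKD1, which binds Dishevelled and dampens the pathway, had a dim probe (hg19 chr16:50667885-50667944, plus strand). Its signals of 30.9, 30.9, 29.9 and 33.1 in HCT116 were above background, and those of 21.4, 21.2, 22.6 and 23.4 in PANC-1 were not. The log2 difference of 0.27 (limma, adjusted p = 0.0255) gave a bound of at least 1.20-fold and missed the 2-fold limit. Larger differences with an offset of 1 and with the scanner's processed signal are not read as sizes or calls, because the PANC-1 side was not above background.

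Of the TCF/LEF transcription factors, which bind beta-catenin on DNA, TCF7 had mock signals of 125, 130, 164 and 154 in HCT116 and of 104, 108, 143 and 126 in PANC-1 (hg19 chr5:133483237-133483296, plus strand). The groups overlapped, and the log2 difference of 0.32 ± 0.11 (SE) was not called (limma, adjusted p = 0.0919). A further TCF7 probe (hg19 chr5:133478508-133478567) had a difference of 0.19. TCF7L2, the main TCF of the adult intestinal epithelium, gave 164, 164, 117 and 118 in HCT116 and 84.5, 87.2, 101 and 94.8 in PANC-1 (hg19 chr10:114905803-114905862, plus strand). Every HCT116 value was above the PANC-1 values, but the 2 HCT116 mocks differed by 0.45 on the log2 scale, and the difference between lines of 0.58 ± 0.17 (SE) was not called (limma, adjusted p = 0.0628). The 3 further TCF7L2 probes were higher in the mock of the miR-139 arrays as well, by 0.22 to 0.44, and differed between lines by 0.23 to 0.78.

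LEF1, the lymphoid member of the TCF family, read 18.8 to 20.2 in HCT116 mock cells and 21.0 to 22.4 in PANC-1 mock cells (hg19 chr4:108968746-108968805, minus strand). LGR5, the R-spondin receptor that marks intestinal stem cells, read 18.7 to 21.4 and 18.2 to 21.2 (hg19 chr12:71978325-71978384, plus strand). ASCL2, a transcription factor of the same stem cells, read 19.4 to 22.5 and 20.4 to 22.4 (hg19 chr11:2289959-2290018, minus strand). Median local background was 17 to 19, so these 3 probes set no level in either line and no fold was computed.

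Promoter windows from RefSeq (GRCh38.p14) were matched by symbol for 5 of the 10 members, RNF43, SP5, LEF1, TCF7 and TCF7L2, with 9 windows. They were searched on both strands for the TCF/LEF core letters CTTTGAT and CTTTGTT, which do not overlap each other. A match was found in 3 of the 9 windows, against 7.61% of 35116 promoter windows. The 250 bases before the start of SP5 (chr2:170715087-170715336, plus strand) and of the more upstream of 2 RNF43 starts (chr17:58417535-58417784, minus strand) are shown because, of the called members above background in both lines, these had the largest differences. AXIN2, with a lower bound only, cannot be ranked against them. The capitals in SP5 mark CTTTGAT, whose first base lies at -109 from the start, and the RNF43 window held no match. The other matches were AACAAAG, the reverse complement of CTTTGTT, at -50 in a TCF7 window and CTTTGTT at -133 in a TCF7L2 window.

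SP5: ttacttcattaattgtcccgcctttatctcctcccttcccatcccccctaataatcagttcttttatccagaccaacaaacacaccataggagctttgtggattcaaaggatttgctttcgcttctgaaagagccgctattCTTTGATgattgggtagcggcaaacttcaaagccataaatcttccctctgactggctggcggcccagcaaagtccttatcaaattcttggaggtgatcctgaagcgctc
RNF43: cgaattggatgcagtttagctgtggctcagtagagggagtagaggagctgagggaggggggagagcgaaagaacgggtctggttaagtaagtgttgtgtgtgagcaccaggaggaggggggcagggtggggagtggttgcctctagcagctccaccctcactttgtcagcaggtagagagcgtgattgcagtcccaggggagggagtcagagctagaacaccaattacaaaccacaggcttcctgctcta

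The ratios to mock asked whether the target genes moved after each transfection. A ratio was called at 2-fold or more, and a gene was read where the scanner placed its probe clearly over background in 1 channel or both. RNF43 was called lower after miR-143-5p, and ZNRF3 and TCF7 were called lower after miR-30c-2-3p. No member was called higher on any array. In HCT116, 7 members were read on each array. After miR-139-5p 0 of them were called lower or higher, against 0.2% and 0.0587% of all genes, and after miR-139-3p 0, against 2.82% and 2.11%. After miR-143-5p 1 was lower and 0 higher, against 1% and 0.356%, and on the array bearing the miR-143-3p label 0, against 0.925% and 0.517%. In PANC-1, 0 of 6 members were called after miR-30c-5p, against 0.445% lower and 0.747% higher, and 0 of 6 after miR-30a-5p, against 0.263% and 0.306%. After miR-30c-2-3p 2 of 5 were lower and 0 higher, against 4.14% and 1.72%, and after miR-30a-3p 0 of 9, against 1.1% and 0.372%. As a yardstick of error, the SD between spots of 1 probe was 0.039 to 0.065 on the log2 scale, and 1.13% to 1.17% of genes differed at least 2-fold between the 2 HCT116 mocks and 0.207% to 0.233% between the 2 PANC-1 mocks.

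**Figure D2:**
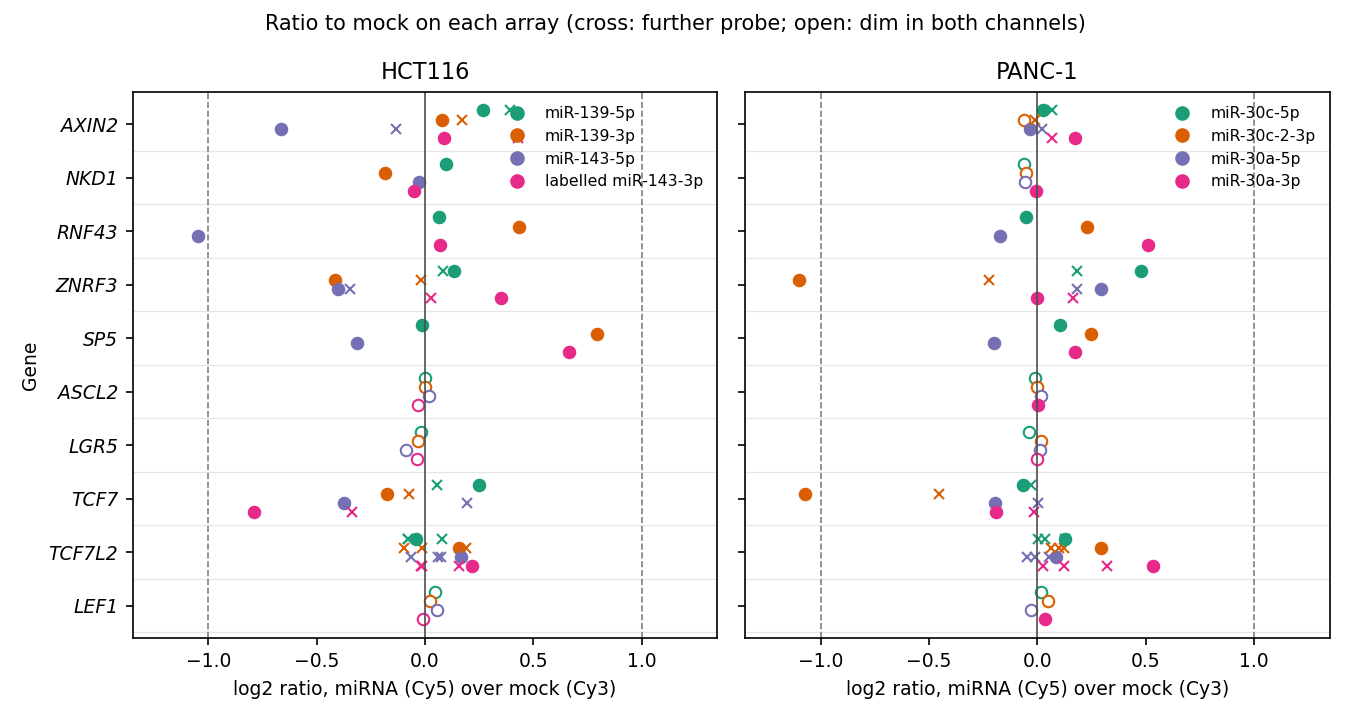
log2 ratio of the transfected (Cy5) over the mock (Cy3) channel for every probe of the 10 genes on the 4 HCT116 arrays (left) and the 4 PANC-1 arrays (right). Filled points are the probe that represents a gene, crosses are further probes at any signal, open points are dim in both channels, and dashed lines mark 2-fold. RNF43 after miR-143-5p and ZNRF3 and TCF7 after miR-30c-2-3p lie beyond the dashed line, and the further ZNRF3 and TCF7 probes lie nearer to 0.

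RNF43 in HCT116 had log2 ratios of 0.066 after miR-139-5p, 0.43 after miR-139-3p, -1.05 after miR-143-5p and 0.068 on the array bearing the miR-143-3p label. It was thus 2.07-fold lower on 1 array and near or above mock on the other 3. The size of the miR-143-5p ratio exceeded the difference of 0.090 between the 2 HCT116 mocks and the largest difference of 0.16 between mock channels of 1 precursor. Both are differences within Cy3, so they hold no spread between dyes or transfections. In PANC-1, where its mock signal was low, the ratios were -0.052 after miR-30c-5p, 0.23 after miR-30c-2-3p, -0.17 after miR-30a-5p and 0.51 after miR-30a-3p. With the scanner's own ratio the value for miR-30a-3p was 1.31, past 2-fold.

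ZNRF3 had ratios of 0.13, -0.42 and -0.40 after miR-139-5p, miR-139-3p and miR-143-5p and of 0.35 on the array bearing the miR-143-3p label. In PANC-1 it was at 0.48 after miR-30c-5p, -1.10 after miR-30c-2-3p, 0.29 after miR-30a-5p and 0.00017 after miR-30a-3p. The miR-30c-2-3p value was a 2.14-fold lower level, and the strand from the other arm of a miR-30c precursor went the other way. The further ZNRF3 probe, at a lower signal, had -0.23 after miR-30c-2-3p and 0.18 after miR-30c-5p. On the scanner's scale, without an offset, the 2 probes were at -1.44 and -1.13 after miR-30c-2-3p.

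TCF7 had ratios of 0.25 after miR-139-5p, -0.17 after miR-139-3p, -0.37 after miR-143-5p and -0.79 on the array bearing the miR-143-3p label. In PANC-1 the ratios were -0.068 after miR-30c-5p, -1.07 after miR-30c-2-3p, -0.20 after miR-30a-5p and -0.19 after miR-30a-3p. The lowest value, 2.10-fold below mock, and the 3 others of PANC-1 had the same sign, but the 3 smaller ones turned positive with median centring. The further TCF7 probe was at -0.45 after miR-30c-2-3p, where its Cy5 signal of 23.4 was not well above background, which gave a level at least 1.37-fold lower. On the array bearing the miR-143-3p label this probe was at -0.34, and the scanner's ratios of the 2 probes were -1.23 and -1.21. After miR-143-5p the further probe was at 0.20, so the 2 TCF7 probes had opposite signs there.

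SP5 had ratios of -0.016 after miR-139-5p, 0.79 after miR-139-3p, -0.31 after miR-143-5p and 0.67 on the array bearing the miR-143-3p label. It was above mock by 1.73-fold and 1.59-fold on 2 arrays, short of the 2-fold limit. In Cy3 the 2 HCT116 mocks differed by -0.019, and mock channels of 1 precursor by up to 0.14. With the scanner's ratio the miR-139-3p value was 1.01. In PANC-1 SP5 ratios lay between -0.20 and 0.25.

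AXIN2 ratios in HCT116 were 0.27, 0.079, -0.67 and 0.089 in the order of the arrays above, so it was 1.59-fold lower after miR-143-5p. The further AXIN2 probe was at 0.39, 0.17, -0.13 and 0.43, and the 2 probes differed most after miR-143-5p. The first AXIN2 probe had a scanner ratio of -1.25 on that array. In PANC-1 the AXIN2 mock channel was not well above background, and no fold is given beyond bounds of at least 1.02-fold higher after miR-30c-5p and 1.13-fold after miR-30a-3p. On these arrays AXIN2 was read through Cy5 alone, so the filter favoured a higher ratio, and the bounds are not read as a rise. The further AXIN2 probe was dim in both channels after miR-30c-5p, with a bound of at least 1.02-fold after miR-30a-3p. NKD1 ratios in HCT116 ran from -0.19 to 0.098, and its scanner ratio after miR-139-3p was -1.16 at Cy3 and Cy5 signals of 30.9 and 26.3.

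The representing TCF7L2 probe was above mock by 0.16 after miR-139-3p, 0.17 after miR-143-5p and 0.22 on the array bearing the miR-143-3p label, and at -0.040 after miR-139-5p. The further probes had mixed signs on the first 3 of these arrays. They ran from -0.097 to 0.19 after miR-139-3p and from -0.063 to 0.073 after miR-143-5p. On the array bearing the miR-143-3p label they ran from -0.018 to 0.16. In PANC-1 the representing probe was at 0.13, 0.29, 0.084 and 0.53 in the order above, the highest after miR-30a-3p. After miR-30a-5p the further probes ran from -0.046 to 0.053. The further probes after miR-30a-3p were at 0.32 (hg19 chr10:114925978-114926037), 0.027 (chr10:114911485-114911544) and 0.12 (chr10:114724321-114724380), so the 4 probes shared a sign on this array and differed in size. ASCL2 and LEF1 were well above background in a single channel, Cy5 of miR-30a-3p, at signals of 26.0 and 27.5, and LGR5 in none.

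**Figure D3:**
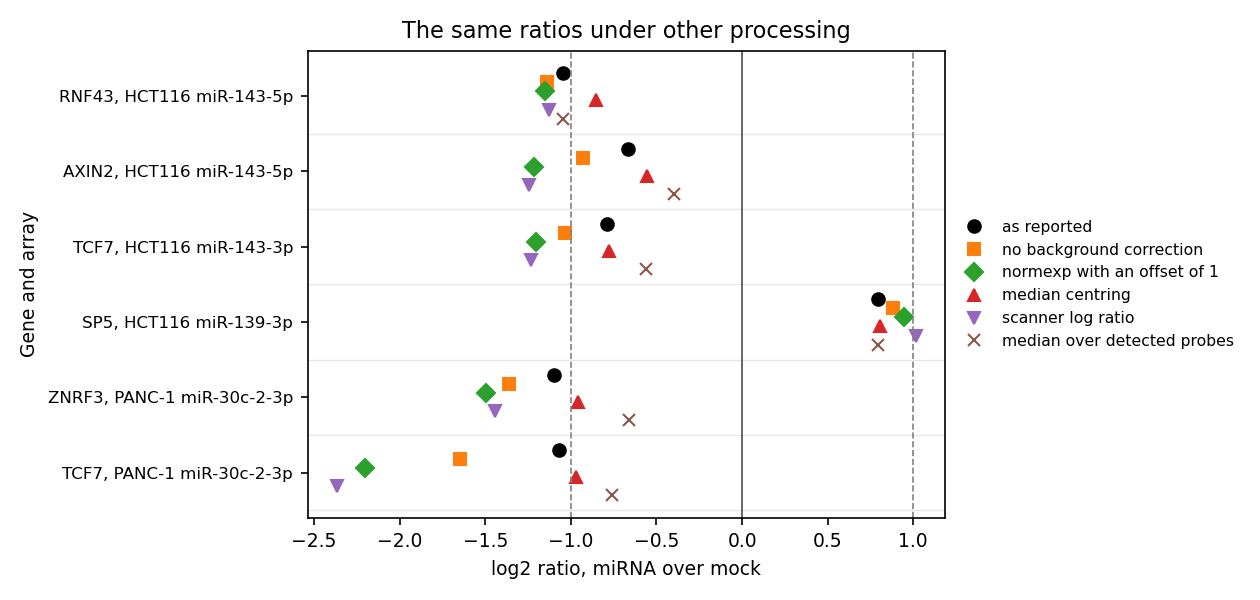
log2 ratio over mock of 6 gene and array pairs, as reported (normexp background correction with an offset of 50 and loess) and under 5 other settings, with dashed lines at 2-fold. The signs hold, while TCF7 after miR-30c-2-3p runs from -2.37 to -0.76 and RNF43 after miR-143-5p from -1.15 to -0.85.

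The values of these members depended on background treatment, normalization and the probes used, which is shown in the plot of ratios under other processing. The called ratios stayed past 2-fold without background correction, with an offset of 1 and with the scanner ratio. With median centring in place of loess, RNF43 after miR-143-5p was at -0.85 and ZNRF3 and TCF7 after miR-30c-2-3p at -0.96 and -0.97, so that each missed 2-fold, and with the median over a gene's probes ZNRF3 and TCF7 were at -0.66 and -0.76. Of 54 member ratios, 20 were at least 0.25 from 0, and none of these changed sign under an alternative, while 11 of the other 34 did. The median over the members read was -0.37 after miR-143-5p, against 0.0048 over all genes, and between -0.10 and 0.23 on the other arrays, against 0.0054 to 0.021. The value of -0.37 was that of the TCF7 probe that represents the gene, and the further TCF7 probe was at 0.20 on that array. Over 5 members detected on all 8 arrays, ZNRF3 had the widest range of ratios, 1.58 on the log2 scale, followed by RNF43 with 1.56, and TCF7L2 had the narrowest, 0.57. Among 15724 genes above background in both channels of all 8 arrays, the ratios of EXOC7 followed those of ZNRF3 most closely, with a Pearson r of 0.987 over the 8 arrays, then FAM83H (0.979), GYS1 (0.978), ARSA (0.976) and KCNG1 (0.973). Among the members, TCF7 had an r of 0.55 with ZNRF3, RNF43 -0.027, SP5 -0.096 and TCF7L2 -0.28. These are descriptions over 8 points, of which pairs may share a mock.

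Of 126 further names of Wnt pathway genes, 123 were on the array, and in mock cells 94 were tested, of which 15 were called higher in HCT116 and 17 higher in PANC-1, against 6.28% and 6.16% of all genes, the shares to set beside each list below. Beta-catenin itself, CTNNB1, was 3.46-fold higher in HCT116 (limma, adjusted p = 0.00172). APC differed by 0.17 and GSK3B by 0.52 on the log2 scale, and AXIN1 by -0.50, each under 2-fold. TLE2, a co-repressor of TCF proteins, was higher in HCT116 by 1.54 on the log2 scale, whereas TCF7L1 (-1.58), a TCF that mostly represses, and the beta-catenin co-factor BCL9L (-1.44) were higher in PANC-1. In the destruction complex, 0 of 16 were higher in HCT116 and 2 higher in PANC-1, APC2 (-1.83) and the ubiquitin ligase subunit FBXW11 (-1.12).

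Among the receptors, FZD1 was higher in HCT116 by 1.20, and 4 of 17 tested were higher in PANC-1, led by LGR4 (-2.10), the R-spondin receptor related to LGR5, FZD7 (-1.30) and LRP5 (-1.22). Of the ligands, WNT3A and WNT16 were at least 2.59-fold and 2.46-fold higher in HCT116, and WNT5B, a ligand mostly of non-canonical signalling, was at least 6.15-fold higher in PANC-1. Of the secreted inhibitors, DKK3 and SFRP1 were at least 8.21-fold and 3.36-fold higher in PANC-1, as was DACT2, at least 7.03-fold, an inhibitor inside the cell. KREMEN1, a receptor of the DKK proteins, was higher in HCT116 by 2.19, and DACT1 at least 1.89-fold. TIAM1, an exchange factor for Rac that was listed with the inhibitors but is not known as one, was higher in HCT116 by 2.49. In a list of other reported targets, 7 of 27 tested were higher in HCT116, led by MSX1 (3.65), BAMBI (2.81), a pseudoreceptor of the TGF-beta family, and BMP4, at least 6.44-fold, and 5 were higher in PANC-1, led by ETS2 (-2.53), ZEB1 (-2.49) and CD44 (-1.84).

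**Figure D4:**
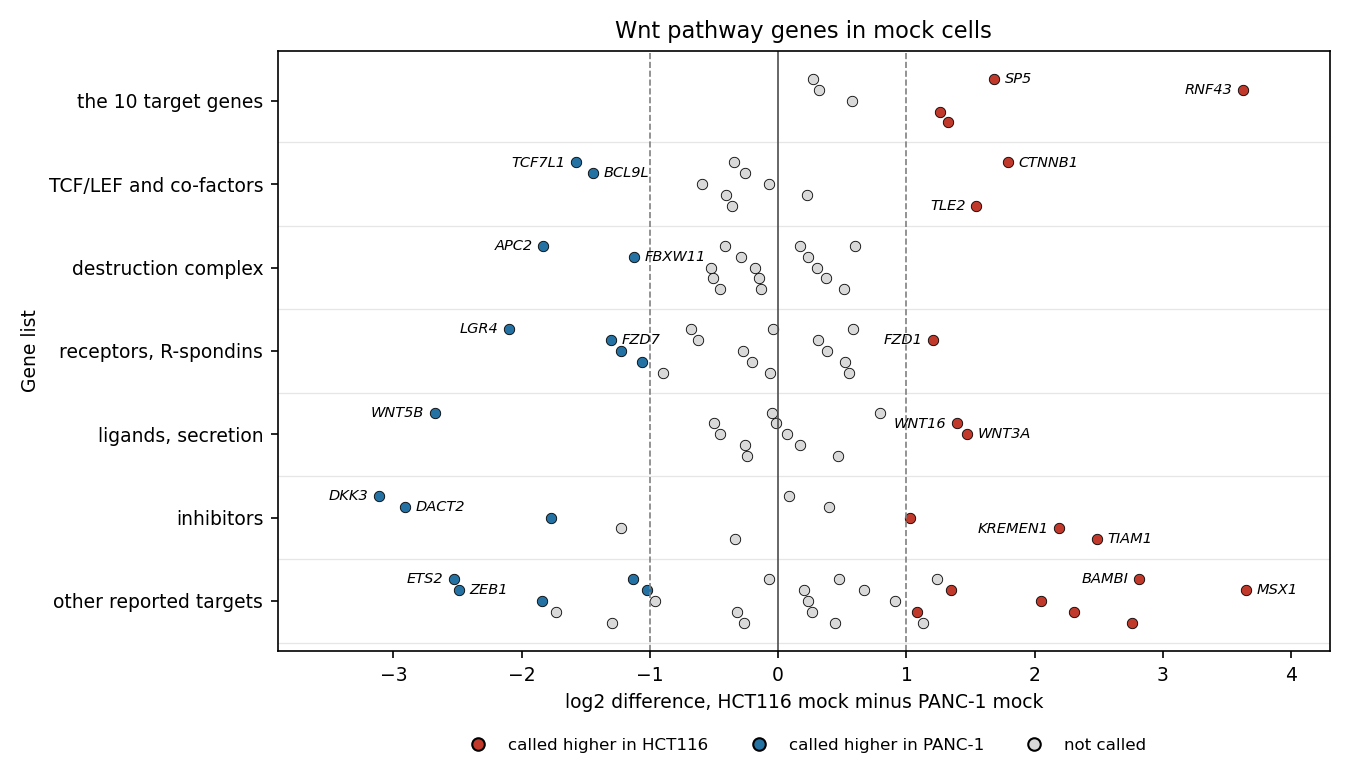
Difference in log2 level between HCT116 and PANC-1 mock cells for the tested genes of each Wnt pathway list, 1 point a gene, with dashed lines at 2-fold and red or blue points called by limma. Of 7 members tested, 4 were called, all to the right. AXIN2 is among them and entered through HCT116 alone, so that the filter set its side. Of 94 genes tested in the other lists, 15 were called higher in HCT116 and 17 higher in PANC-1. Over all genes the shares were 6.28% and 6.16%.

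After transfection, pathway genes were called on 36 of 713 gene and array pairs read, 23 lower and 13 higher. The most were after miR-30c-2-3p, the array on which ZNRF3 and TCF7 were lower, where 10 of 90 genes read were lower, against 4.14% of all genes, and 2 were higher, against 1.72%. They included TCF7L1 (-1.79), the Dishevelled genes DVL2 (-1.41) and DVL1 (-1.21), which pass the signal from the receptors, and DACT2 (-1.80), and among the higher WLS (1.60), which carries Wnt ligands to the surface. After miR-139-3p 5 of 85 were lower and 2 higher, against 2.82% and 2.11% of all genes. The lower ones included MYC (-2.92) and CD44 (-2.74), both from the list of other reported Wnt targets, the inhibitor DKK1 (-1.91) and TIAM1 (-1.74). The higher ones were ID2 (1.77) and MSX1 (1.18). On the array bearing the miR-143-3p label 3 of 87 were lower, against 0.925%, and these were DKK1 (-1.68), MYC (-1.09) and CD44 (-1.02). MYC and CD44 were also lower after miR-30c-2-3p, at -1.70 and -1.36. After miR-143-5p 1 of 88 was lower, SOX4 (-1.27), a share near the 1% of all genes, and after miR-139-5p 1 of 86 was higher, ID2 (1.17), against 0.0587%.

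In PANC-1 1 of 91 pathway genes was lower and 3 higher after miR-30c-5p, against 0.445% and 0.747% of all genes, 0 and 1 of 91 after miR-30a-5p, against 0.263% and 0.306%, and 3 and 4 of 95 after miR-30a-3p, against 1.1% and 0.372%. After miR-30c-5p, PORCN, which acylates Wnt ligands, was lower (-1.20) and ROR1, a receptor of WNT5A, higher (1.28), and ROR1 was lower after miR-30a-3p (-1.48). CLDN1 was higher after miR-30c-5p (1.74) and miR-30a-5p (1.36). After miR-30a-3p FZD4 (1.34), FZD5 (1.16) and BTRC (1.04), the subunit that recognises phosphorylated beta-catenin, were higher. CTNNB1 ratios were 0.074 to 0.38 in HCT116 and -0.089 to 0.48 in PANC-1, APC ratios -0.39 to 0.17, AXIN1 ratios -0.11 to 0.34 and GSK3B ratios -0.22 to 0.71, so none of these 4 was called on an array.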

How the data were processed

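Agilent two-colour arrays were read with Feature Extraction 11.5.1.1 (hg19), per the file headers. The deposited files hold spot intensity in both channels and a log10 ratio of Cy5 over Cy3, and the deposited value table repeats that log10 ratio. From the mean and background intensities, limma 3.58.1 (R 4.3.3) computed normexp background correction with an offset of 50 and loess within arrays, with control and outlier spots left out. The probe with the highest mean intensity represents a gene. Mock levels were Cy3 values after Aquantile scaling, averaged for the 2 arrays of a precursor, and 2 mocks of each line were compared by limma with Benjamini-Hochberg adjustment over 19496 genes well above background on all 4 arrays of a line. This test was checked on simulated data. Ratios have no test. Genes were named by a rule: every member, then at most 3 pathway genes each way per list, and the genes most like the member with the widest range. The members and lists were chosen with earlier results of these data known. The label check by heptamers was added after the data were seen. The number of arrays limits the precision.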

Additional observations from a re-analysis of the deposited data

How the results depend on the processing

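All 4 members called in the mock comparison, of which AXIN2 entered through HCT116 alone, stayed called and higher in HCT116 under the 11 alternatives, and none was called higher in PANC-1. Leaving out each mock in turn gave 4 in every case, and for pathway genes 9 to 16 higher in HCT116 (15 as reported) and 13 to 16 higher in PANC-1. A line with 1 mock left is assumed to vary like the other. Over all genes, the calls fell from 1224 and 1200 to 689 and 889 without the first PANC-1 mock and 700 and 927 without the second. With an offset of 1 and with the processed signal, pathway genes higher in PANC-1 numbered 28 and 29 in place of 17. For the ratios, the 3 member calls became 0 with median centring (0 in HCT116 and 0 in PANC-1), which moved the median of all genes to as much as 0.30. With the median over probes the PANC-1 calls became 0. In HCT116, 2 lower calls were made without background correction, 3 with an offset of 1 and 4 with the scanner ratio, which also gave 1 higher. In PANC-1, 1 was higher with an offset of 1 and 2 with the scanner ratio. Pathway pairs lower in HCT116 rose from 9 to 18 without background correction, 32 with an offset of 1 and 37 with the scanner ratio, and pairs higher from 3 to 8 with an offset of 1 and 14 with the scanner ratio. In PANC-1 pairs lower went from 14 to 22, 33 and 37 in that order and to 7 with median centring, and pairs higher from 10 to 20 with an offset of 1, 27 with median centring and 24 with the scanner ratio. The cause was not tested. Each ratio pairs the transfected and mock RNA of 1 array, and with 1 array for each miRNA no paired test was possible. Signals near background limit NKD1, AXIN2 in PANC-1, and ASCL2, LGR5 and LEF1 in both lines.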

Other observations

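Both AXIN2 probes, ASCL2, NKD1 and LEF1 were well above background in Cy5 of the miR-30a-3p array and not in Cy3 of the same array. Their Cy5 signals were 38.8 and 28.4 for AXIN2, 26.0 for ASCL2, 26.4 for NKD1 and 27.5 for LEF1, against Cy3 signals of 22.4, 21.8, 22.4, 23.4 and 22.1. On this array 51.4% of spots were well above background in Cy5, and its median Cy5 signal of 26.5 was the highest of the 8 arrays. The part of the higher Cy5 signal in these values was not tested. In HCT116, TCF7L2 on all 4 of its probes and the further AXIN2 probe (0.31) were higher in the mock of the miR-139 arrays, and both ZNRF3 probes were higher in the mock of the miR-143 arrays (-0.17 and -0.39, miR-139 mock minus miR-143 mock, log2).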
